A study of Homo sapiens with 3 samples.

Results

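The 10 genes described here encode the Notch receptors and the proteins that carry and limit their signal in the nucleus: the receptors NOTCH1, NOTCH2, NOTCH3 and NOTCH4, the DNA-binding factor RBPJ, the coactivators MAML1, MAML2 and MAML3, the ubiquitin ligase subunit FBXW7 and the corepressor SPEN. They were chosen by name, with earlier results of these data known, from 20033 protein-coding genes with a RefSeq position in GRCh38. All peaks of H3K4me3 and H3K4me1 within each gene span plus 50 kb on each side were collected, which gave 28 of 11100 H3K4me3 peaks and 170 of 62087 H3K4me1 peaks. Chromatin immunoprecipitation with sequencing (ChIP-seq) had been carried out for both marks in ALL-SIL, an established human T-cell acute lymphoblastic leukaemia (T-ALL) line with no treatment named in the labels. The series holds 1 H3K4me1 library, 1 H3K4me3 library and 1 input library, so every value below is a single measurement with no replicate error, and no test or p-value is given. ALL-SIL is 1 line, grown in culture, and what is seen in it was not set against normal thymocytes or other leukaemias.

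Notch receptors are surface proteins that are cut when a ligand on a neighbouring cell binds them. A first cut by an ADAM protease and a second by gamma-secretase release the intracellular domain, which enters the nucleus and joins RBPJ on DNA. A Mastermind-like protein (MAML) docks onto this complex and recruits acetyltransferases, while FBXW7 marks the intracellular domain for destruction. Without Notch, RBPJ binds corepressors that include SPEN. NOTCH1 signalling drives early T-cell development, and activating NOTCH1 mutations and inactivating FBXW7 mutations are common in T-ALL. H3K4me3 is found at active and poised promoters, and H3K4me1 at enhancers and beside promoters. The sequence of these genes in ALL-SIL, their RNA and their proteins were not analysed here.

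The filtered libraries held 34813455 tags for H3K4me1, 30823016 for H3K4me3 and 18859011 for the input. H3K4me3 peaks had a median length of 1397 bp and a median fold enrichment over local background of 4.53, and H3K4me1 peaks a median length of 1020 bp and a median fold of 2.37. Fold and −log10 q are the authors' caller's own means over each broad region, used here only to describe peaks within 1 list. Against the label, H3K4me3 lay at an end of 5 of 7 T-lineage genes (all but CD2 and CD5), at TLX1, the oncogene for which the line is known, at 1 of 5 B-lineage genes (CD79B) and at none of 5 myeloid genes. H3K4me1 separated the T and B lists less well: it lay in 7 of 7 T-lineage spans (median 51.4% of the span), in 4 of 5 B-lineage spans (median 33.4%), in 1 of 5 myeloid spans (median 0%) and not in TLX1.

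H3K4me3 lay at an end of 9 of the 10 Notch genes (90.0%, exact 95% interval 55.5% to 99.7%), against 49.4% of all protein-coding genes. A peak was counted at an end when it came within 1 kb of where the gene span starts or stops. RBPJ was the exception. Its H3K4me3 peak lay inside the span and away from both ends, as in 3.98% of all protein-coding genes. At NOTCH4, the peak lay at the 3′ end and not at the start. Measured instead from the RefSeq start sites, 9 of 10 genes had H3K4me3 within 1 kb, against 53.5% of the 15842 protein-coding genes with a start in the RefSeq promoter table, and NOTCH4 was the gene without it. The genes were picked for their role and are 10 loci in 1 library, so the interval covers counting error only. H3K4me1 lay in all 10 spans, against 60.5% of protein-coding genes. The median span was 125430 bp over the members and 24130 bp over all protein-coding genes, and this comparison was not matched for length.

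The sequence just before a start site differed between marked and unmarked starts. Over the 9879 RefSeq starts under H3K4me3, the 250 bases before the start held a median of 22 CG pairs, against 7 at the 12303 starts not under it. Shown here are these bases, from RefSeq on GRCh38.p14, at the receptor gene with the broadest H3K4me3 at its start, at the receptor gene with none there, and at 2 starts each of RBPJ and FBXW7 that differed in their marks. Each is written 5′ to 3′ along the gene's own strand, with CG pairs in capitals.
NOTCH1 (chr9:136546049-136546298, minus strand): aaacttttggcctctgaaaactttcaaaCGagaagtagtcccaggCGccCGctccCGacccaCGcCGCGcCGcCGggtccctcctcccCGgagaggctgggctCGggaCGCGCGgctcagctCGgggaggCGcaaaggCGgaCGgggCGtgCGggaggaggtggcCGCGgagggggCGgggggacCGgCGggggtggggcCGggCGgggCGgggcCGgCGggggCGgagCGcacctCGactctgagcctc
NOTCH4 (chr6:32224068-32224317, minus strand): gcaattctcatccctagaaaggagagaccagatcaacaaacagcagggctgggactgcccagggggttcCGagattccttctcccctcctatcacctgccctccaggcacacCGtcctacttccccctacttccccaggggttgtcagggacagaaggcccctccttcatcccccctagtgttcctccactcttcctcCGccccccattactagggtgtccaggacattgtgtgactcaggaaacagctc
RBPJ start under H3K4me3 (chr4:26319496-26319745, plus strand): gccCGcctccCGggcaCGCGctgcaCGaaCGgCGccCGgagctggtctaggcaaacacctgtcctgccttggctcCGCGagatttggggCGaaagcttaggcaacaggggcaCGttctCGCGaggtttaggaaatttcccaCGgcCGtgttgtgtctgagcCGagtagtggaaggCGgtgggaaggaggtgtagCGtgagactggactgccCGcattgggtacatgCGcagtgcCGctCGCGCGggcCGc
RBPJ start without H3K4me3 (chr4:26163208-26163457, plus strand): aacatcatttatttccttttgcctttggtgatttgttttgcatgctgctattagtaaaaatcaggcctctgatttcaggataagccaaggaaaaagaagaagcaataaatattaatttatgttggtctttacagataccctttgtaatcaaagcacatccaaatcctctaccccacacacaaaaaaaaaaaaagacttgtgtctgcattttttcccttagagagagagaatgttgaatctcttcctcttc
FBXW7 5′ start (chr4:152536093-152536342, minus strand): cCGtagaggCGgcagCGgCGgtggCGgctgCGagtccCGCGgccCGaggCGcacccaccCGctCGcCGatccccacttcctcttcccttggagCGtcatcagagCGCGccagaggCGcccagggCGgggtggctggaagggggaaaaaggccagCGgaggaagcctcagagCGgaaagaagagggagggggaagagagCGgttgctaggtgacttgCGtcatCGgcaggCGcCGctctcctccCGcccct
FBXW7 internal start (chr4:152352827-152353076, minus strand): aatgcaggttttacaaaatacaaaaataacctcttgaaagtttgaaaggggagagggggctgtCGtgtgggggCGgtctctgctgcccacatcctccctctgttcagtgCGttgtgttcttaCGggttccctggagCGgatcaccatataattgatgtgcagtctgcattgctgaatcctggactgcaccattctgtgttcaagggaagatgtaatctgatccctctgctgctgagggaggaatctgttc

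These windows held 33 CG pairs at NOTCH1 and 3 at NOTCH4. At RBPJ, the start under H3K4me3 had 26 and the start without it 0. At FBXW7, the 5′ start had 26 and the internal start 5, with 23 at the start at 152535241, under H3K4me3, and 0 at the start at 152382529, not under it. Of the members' other starts, SPEN had 44 CG pairs, MAML3 35, NOTCH2 29, NOTCH3 28, MAML1 21 and MAML2 12. The starts of NOTCH2 and NOTCH3 were not themselves under H3K4me3, their peaks beginning 39 and 93 bp into the gene, and yet had more CG pairs than the median of 22 at starts under it. MAML2 had the fewest CG pairs of the starts that lay under H3K4me3. The 4 motifs searched on both strands each had few or no matches in the members' windows. With so few windows, these counts cannot be told apart from the shares over all windows. TGGGAA, the core of the RBPJ site, occurred at 1 member start, the RBPJ start shown above at position 26319746, and in 20.1% of all 22182 windows. TGTGGT, the RUNX core, occurred at MAML3 and in 9.36% of all windows. TATAAA, the TATA box, occurred at the RBPJ start at 26343140 and the FBXW7 start at 152382529, neither of them under H3K4me3, and in 9.01% of all windows. CCGGAAG, an ETS site, occurred at no member start and in 10.7% of all windows. At starts under H3K4me3, the shares were 19.1% for TGGGAA, 7.08% for TGTGGT, 4.08% for TATAAA and 19.3% for CCGGAAG. At starts not under it, they were 20.8%, 11.2%, 13.0% and 3.77%, in that order. A match describes letters and not binding.

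NOTCH1, the receptor most often mutated in T-ALL, spans 51.6 kb on the minus strand of chromosome 9 (136494433 to 136546048). An H3K4me3 peak of 3223 bp covered its start, from 0.913 kb before it to 2.31 kb into the gene. It was longer than 94.4% of H3K4me3 peaks, but its fold of 4.68 was close to the list median. A start of NALT1, a lncRNA gene beside NOTCH1, lies within 1 kb of the same peak, so the mark cannot be given to one gene alone. A second, weaker H3K4me3 peak of 598 bp and a fold of 3.93 lay 12.4 to 13.0 kb into the gene, where RefSeq places no start, wholly under H3K4me1.

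H3K4me1 at NOTCH1 was both long and high. A single peak of 17.2 kb with a fold of 3.58, above 83.9% of H3K4me1 peaks, ran from 1.68 to 18.9 kb into the gene and covered 33.4% of the span, more than in 91.7% of protein-coding genes. Cut into 4 equal parts from the 5′ end, the gene was covered to 87.0%, 46.5%, 0% and 0%, so all of its H3K4me1 lay in the 5′ parts. Upstream of the start, a peak of 8.24 kb began 0.542 kb away and 6 more followed, 7 in all. Together they covered 29.5 kb of the 50 kb before the gene, or 58.9%, and over both flanks NOTCH1 stood above 97.9% of protein-coding genes. The longest was a 28.3-kb peak that began 36.4 kb upstream and ran past the window to 64.7 kb, with a fold of 3.92, above 88.2% of H3K4me1 peaks.

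The strongest H3K4me1 at NOTCH1 lay between these, in short peaks. A peak of 568 bp, 24.1 to 24.6 kb upstream, had a fold of 6.99, above 99.4% of H3K4me1 peaks. Its neighbour, 25.9 to 27.3 kb upstream, was 1410 bp long with a fold of 6.56. The window's other H3K4me3 peaks were not NOTCH1's own. One, of 1777 bp with a fold of 2.29, lay 40.8 to 42.6 kb upstream at no gene end and wholly within the 28.3-kb H3K4me1 peak. The other, at the SEC16A and C9orf163 starts downstream, had a fold of 6.51. The protein-coding genes nearest to NOTCH1 in percentile ranks of 4 measures (H3K4me3 bases at the ends and inside, H3K4me1 share of the span and of the flanks) were SLC20A1, TNRC6B and AMZ2, at distances of 2.70, 3.03 and 3.52 percentile points. Likeness in these measures is all that is meant.

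**Figure D1:**
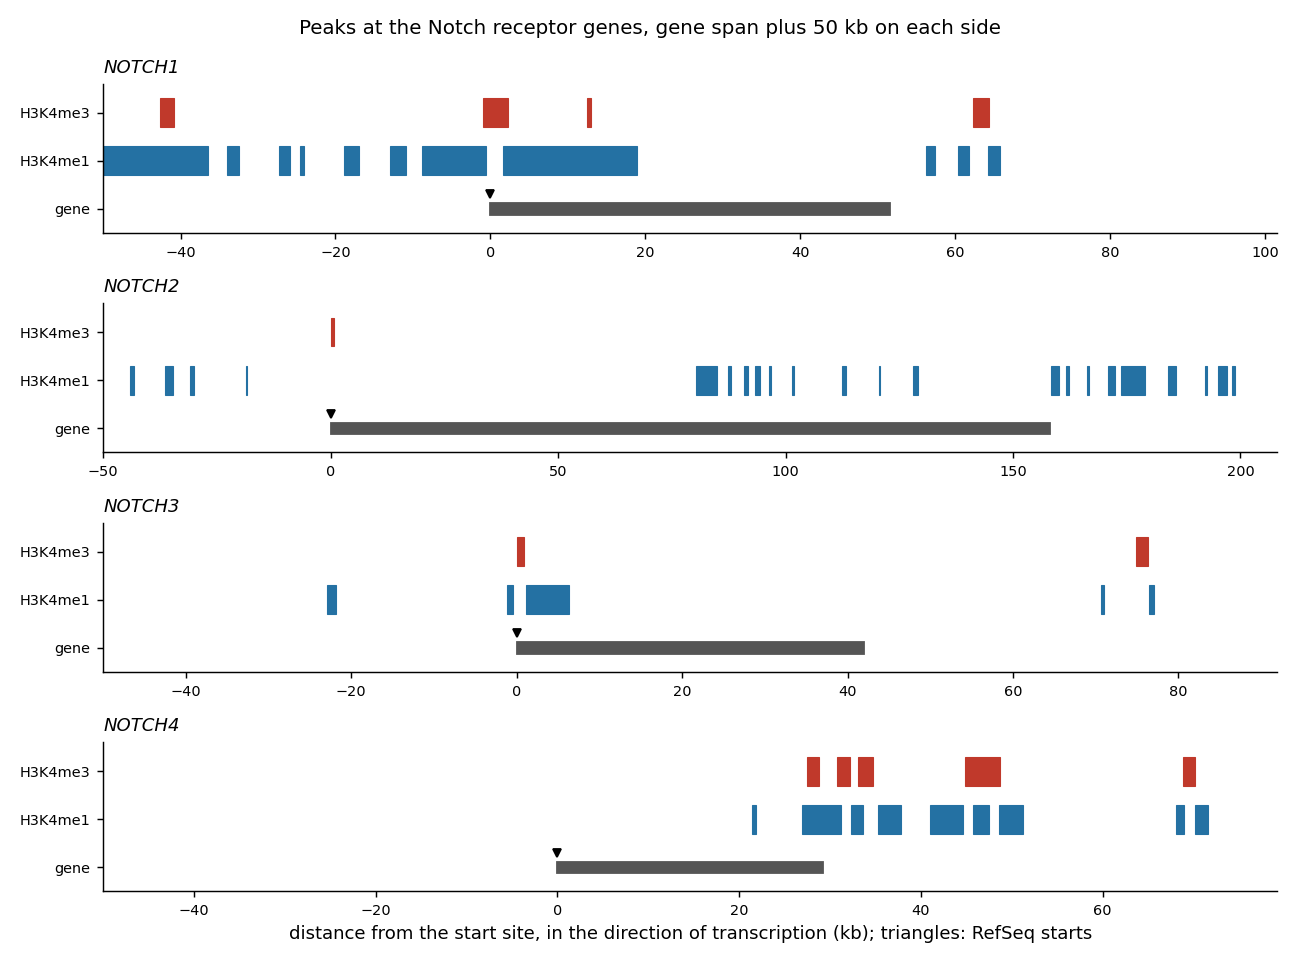
H3K4me3 (upper row of each panel) and H3K4me1 (lower row) peaks around NOTCH1, NOTCH2, NOTCH3 and NOTCH4, by distance in kb from the RefSeq start along the gene's own direction, with the gene drawn as a bar. NOTCH1 has H3K4me3 at its start and H3K4me1 over 33.4% of its span, while NOTCH4 has no peak of either mark within 21.4 kb of its start.

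NOTCH2 spans 158 kb of chromosome 1 (119911553 to 120069662, minus strand) and is the receptor best known for marginal zone B cells. Its start carried an H3K4me3 peak of 798 bp with a fold of 3.48, which began 39 bp into the gene and also lies within 1 kb of an end of LOC101929178. This was the sole one of the members' own H3K4me3 peaks with no H3K4me1 within 2 kb on either side: the nearest lay 18436 bp upstream and 79567 bp downstream. H3K4me1 covered 6.50% of the span in 9 peaks, with 0% and 0% of the 5′ parts and 22.7% and 3.28% of the 3′ parts. NOTCH2 has near-identical partial copies on the same chromosome, and how reads that match several places were treated is not given in the sources used here. H3K4me3 was called at an end of the copies NOTCH2NLA (fold 3.53) and NOTCH2NLC (fold 5.36) and at no end of NOTCH2NLB or NOTCH2NLR. Values at the NOTCH2 start, and the lack of H3K4me1 around it, are therefore uncertain.

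NOTCH3, which on T cells is known mainly from T-ALL models and is best studied in vascular smooth muscle, spans 41958 bp of chromosome 19 (15159038 to 15200995, minus strand). Its start peak of H3K4me3 was 754 bp long, began 93 bp into the gene, and had a fold of 2.68, higher than in only 9.65% of H3K4me3 peaks. H3K4me1 stood on both sides of it, 490 bp upstream and 219 bp downstream. The downstream one, 5.22 kb long, ran from 1.07 to 6.28 kb into the gene and was the sole H3K4me1 peak inside it, so that 12.4% of the span was covered. The window's other H3K4me3 peak lay downstream, at ends of HACL2 and ILVBL-AS1. Pileup divided by fold, a measure of the caller's local background, was 4.50 at the NOTCH3 start peak, against 2.79 in the median H3K4me3 peak. The median over H3K4me1 peaks of its window was 4.11, the highest of the 10 windows, against 2.48 over the list. Its part in the low fold was not tested.

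NOTCH4, a receptor best known from endothelium, spans 29.2 kb of chromosome 6 (32194843 to 32224067, minus strand) in a gene-dense stretch. Its start carried neither mark: H3K4me3 was 27453 bp away and H3K4me1 21403 bp away, and no H3K4me1 peak lay in the 50 kb upstream. The H3K4me3 peak counted at its 3′ end was 1383 bp long with a fold of 4.06, and lay at a start of GPSM3, the next gene, wholly under H3K4me1. The other 4 H3K4me3 peaks of the window also lay downstream, at PBX2 and GPSM3, at AGPAT1 and RNF5, at PRRT1, PPT2, PPT2-EGFL8 and LOC100507547, and at a further GPSM3 start. H3K4me1 covered 9.62% of NOTCH4, of which the part nearest the 3′ end held most (32.2% of that part), and 32.5% of the 50 kb downstream. Of the 4 receptor genes, NOTCH1, NOTCH2 and NOTCH3 thus had H3K4me3 at their starts, with folds of 4.68, 3.48 and 2.68 and lengths of 3223, 798 and 754 bp. The −log10 q values were 7.85, 6.88 and 4.25, so the NOTCH3 peak was lost at a minimum of 5. In the upper part of the list by fold, only NOTCH1 of these kept its start peak.

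RBPJ spans 330 kb on the plus strand of chromosome 4 (26105449 to 26435131) and has 5 start sites in the RefSeq table. H3K4me3 marked 3 of them with a single peak of 2901 bp and a fold of 5.91, longer than 91.9% of H3K4me3 peaks. It covered the starts at 26319746, 26321014 and 26321228, which lie 214 to 216 kb from the 5′ end of the span. The start at 26163458, nearest the 5′ end, was 155.8 kb from the peak, and the start at 26343140 was 20.9 kb from it. Both unmarked starts held 0 CG pairs in the 250 bases before them, against 26, 26 and 40 at the marked starts. H3K4me1 was sparse. Its 7 peaks covered 2.39% of the span, the lowest share among the 10 genes, with folds of 1.76 to 3.23 and none within the 50 kb on either side. H3K4me1 stood 1857 bp beyond the 3′ edge of the H3K4me3 peak and 121063 bp before its 5′ edge.

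**Figure D2:**
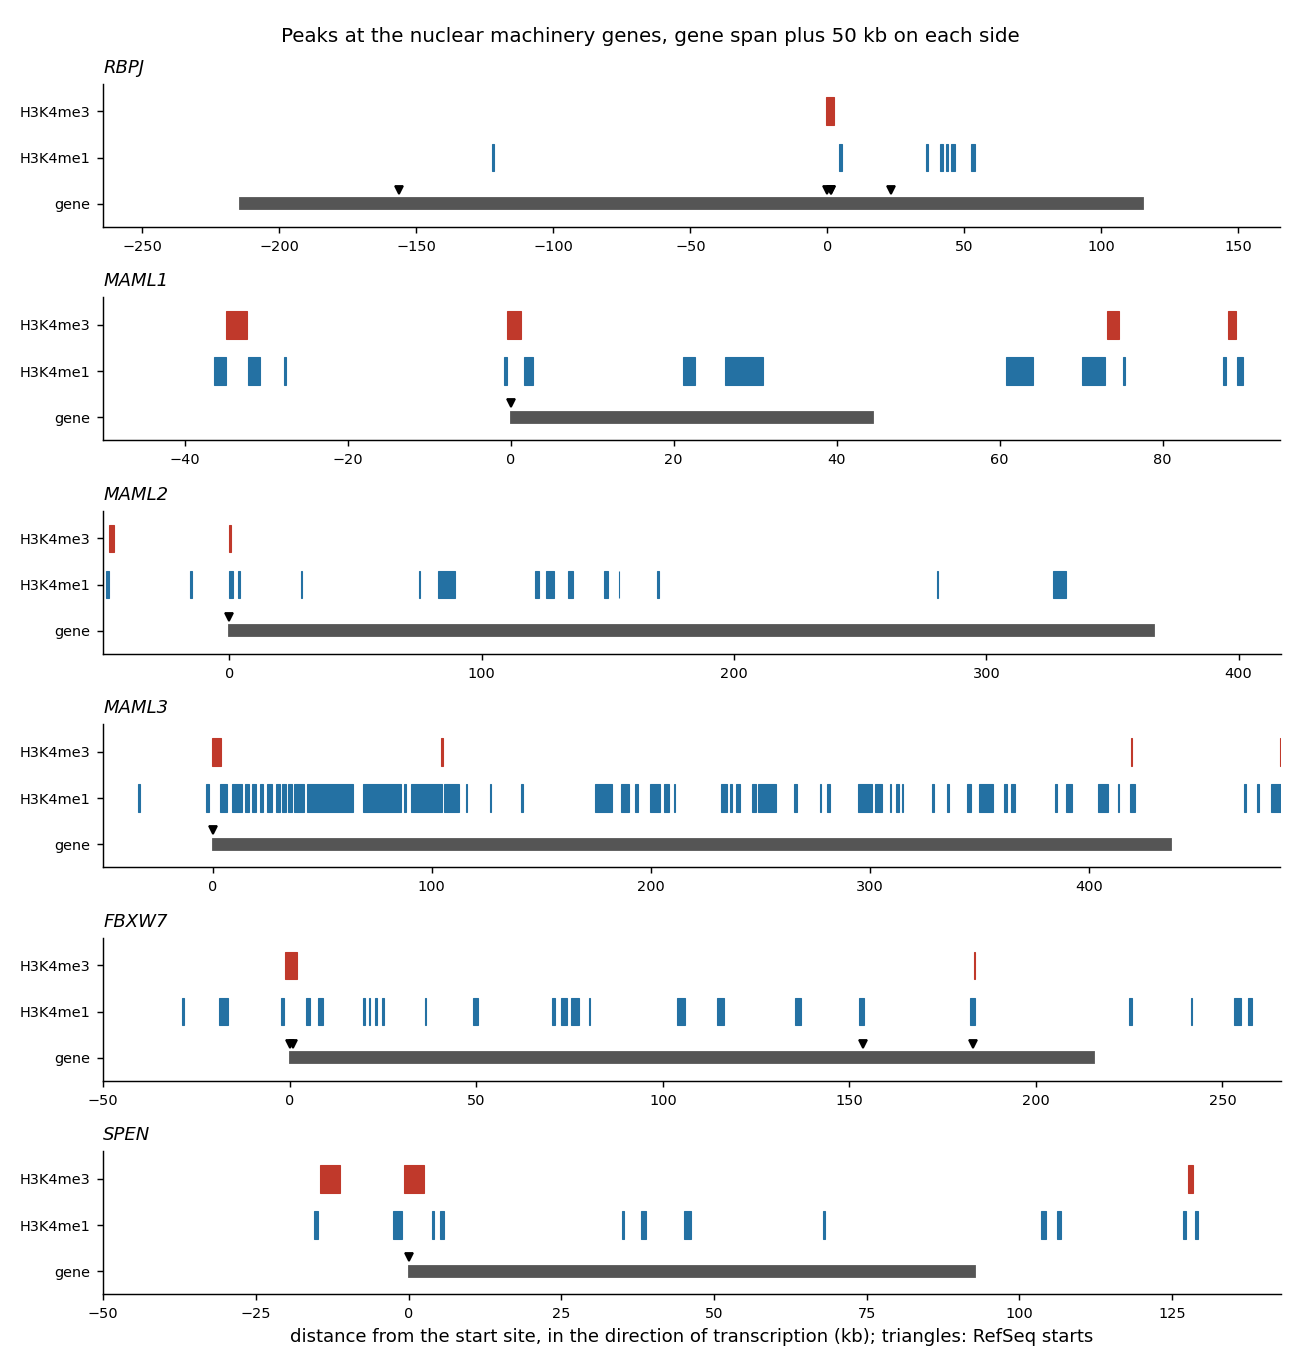
H3K4me3 (upper row of each panel) and H3K4me1 (lower row) peaks around RBPJ, MAML1, MAML2, MAML3, FBXW7 and SPEN, by distance in kb from the start named first in the text. RBPJ has its H3K4me3 peak more than 200 kb inside the gene span, and MAML3 has 48 H3K4me1 peaks inside the gene.

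The MAML genes had H3K4me3 over their starts in all 3 cases, at similar folds and at very different lengths. MAML1 (chromosome 5, 179732822 to 179777283, plus strand, 44.5 kb) had a peak of 1676 bp and a fold of 5.89. This peak also lies within 1 kb of an end of CANX, but MAML1 alone has a RefSeq start that near. A CANX start lies within 1 kb of another H3K4me3 peak, of 2566 bp, 32.3 to 34.9 kb upstream. MAML2 (chromosome 11, 95976598 to 96343195, minus strand, 367 kb), the MAML gene known from fusions in salivary gland cancer, had 689 bp at a fold of 5.53, longer than only 14.3% of H3K4me3 peaks. MAML3 (chromosome 4, 139716753 to 140154184, minus strand, 437 kb) had 4120 bp at a fold of 5.25, longer than 97.6%. The MAML2 peak lay wholly within an H3K4me1 peak of 1710 bp, the MAML1 peak had H3K4me1 38 bp upstream and 382 bp downstream, and the MAML3 peak overlapped H3K4me1 for 497 bp at its 3′ edge.

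H3K4me1 inside MAML2 and MAML3 differed in fold and −log10 q. MAML2 had 13 peaks inside the gene, and all 13 had a fold above the list median of 2.37. Their median fold was 5.38, and 12 of 13 reached a −log10 q of 5. The strongest, 169.6 to 170.1 kb into the gene and 558 bp long, had a fold of 8.77, above 99.9% of H3K4me1 peaks and the highest in the 10 windows. MAML3 had 48 peaks inside the gene with a median fold of 2.03, of which 11 lay above the list median and none reached a −log10 q of 5. Median lengths were 1664 bp in MAML2 and 1747.5 bp in MAML3. Over the H3K4me1 peaks of each window, pileup divided by fold had a median of 2.31 at MAML2 and 2.91 at MAML3. The list median was 2.48, and the part of local background in the difference was not tested.

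H3K4me1 covered 37.3% of MAML3, or 163 kb, against 6.73% of MAML2. That share of MAML3 was above 97.4% of the 3356 protein-coding genes of at least 100 kb. The 4 equal parts of MAML3 from the 5′ end were covered to 75.6%, 22.8%, 28.3% and 22.4%. Its longest peaks, of 21.1, 17.6 and 14.0 kb, had folds of 2.13, 2.08 and 2.24 and lay between 42.9 and 104.6 kb into the gene. At the far edge of the last of these, 104.4 to 105.2 kb into the gene, was an H3K4me3 peak of 806 bp with a fold of 4.24, 189 bp of it under H3K4me1. A further one, of 576 bp with a fold of 2.67, lay 419.0 to 419.6 kb in, and RefSeq places no start at either. With peaks under a −log10 q of 5 left out, no H3K4me1 was left in MAML3, while MAML2 kept 4.86%. MAML1 had 3 H3K4me1 peaks inside the gene over 16.3% of its span, among them one with a fold of 5.97 just after the start, 1.62 to 2.71 kb in. H3K4me3 at ends of neighbours lay at MGAT4B and SQSTM1 in the MAML1 window (fold 9.08), at CCDC82 and JRKL in the MAML2 window (fold 3.54) and at MGST2 in the MAML3 window (fold 3.66).

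**Figure D3:**
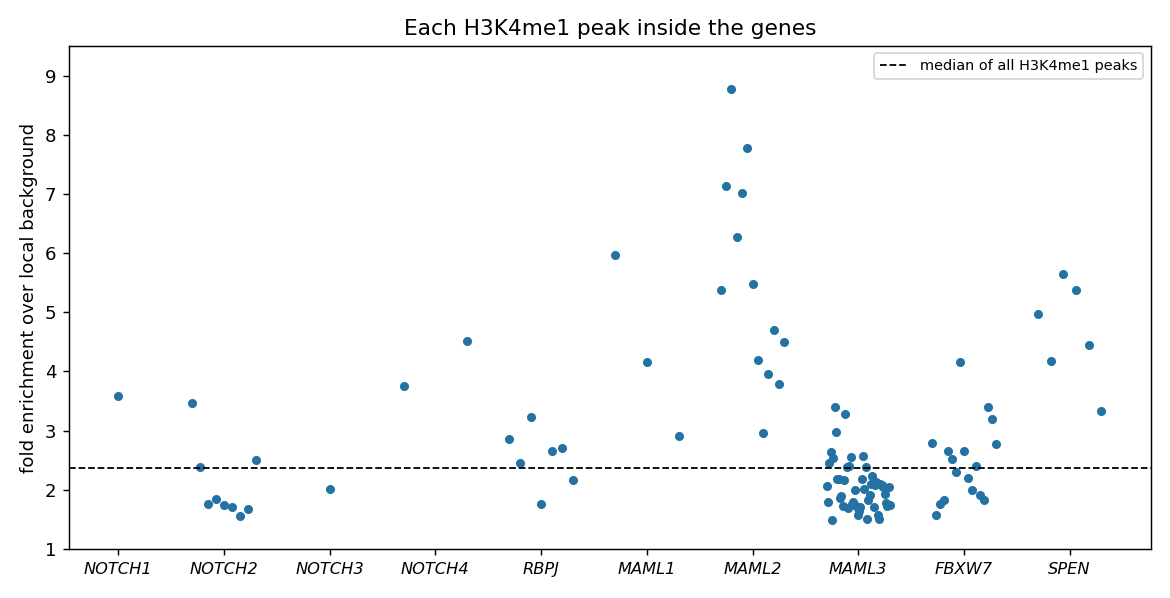
Fold enrichment over local background of each H3K4me1 peak inside each gene (1 point per peak), with the median of all H3K4me1 peaks as a dashed line at 2.37. The 13 MAML2 points and the 6 SPEN points all lie above the line, and 11 of 48 MAML3 points do.

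FBXW7 spans 216 kb of chromosome 4 (152320544 to 152536092, minus strand) with 4 starts in the RefSeq table. An H3K4me3 peak of 3341 bp and a fold of 4.12 covered the starts at 152536092 and 152535241, and an end of the lncRNA gene MIR4453HG lies within 1 kb of it. H3K4me1 lay 77 bp beyond its upstream edge and 2328 bp beyond its downstream edge. A second H3K4me3 peak lay 183 kb into the gene, 46 bp from the start at 152352826. At 256 bp it was far shorter than the list median of 1397 bp, yet its fold of 6.51 was above 80.9% of them and was the highest of the members' own peaks. It sat wholly under H3K4me1, in contrast to the 5′ peak, which overlapped none. The start at 152382529 had no H3K4me3 within 29.7 kb but lay under H3K4me1. H3K4me1 inside FBXW7 came as 17 peaks over 8.67% of the span, 9 of them above the list median fold, with a highest fold of 4.17.

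SPEN, the large corepressor that RBPJ recruits and that also acts in X-chromosome silencing, spans 92.8 kb of chromosome 1 (15847707 to 15940456, plus strand). Its start peak of H3K4me3 was 3268 bp long with a fold of 6.27 and a −log10 q of 16.5, the highest −log10 q among the members' own peaks. SPEN-AS1, an antisense gene, has an end within 1 kb of the same peak, and another H3K4me3 peak of 3170 bp also lay at an end of it, 11.3 to 14.5 kb upstream of SPEN. Downstream of SPEN, ZBTB17 had a peak at its end with a fold of 6.64. H3K4me1 inside SPEN was strong. Its share of the span was low among the members, though above the median of 2.04% over all protein-coding genes. Its 6 peaks covered 3.97% of the span with a median length of 515.5 bp and a median fold of 4.71, all 6 above the list median, and 5 reached a −log10 q of 5. RBPJ and SPEN thus had the 2 lowest shares of span under H3K4me1, with highest folds of 3.23 in RBPJ and 5.65 in SPEN.

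**Figure D4:**
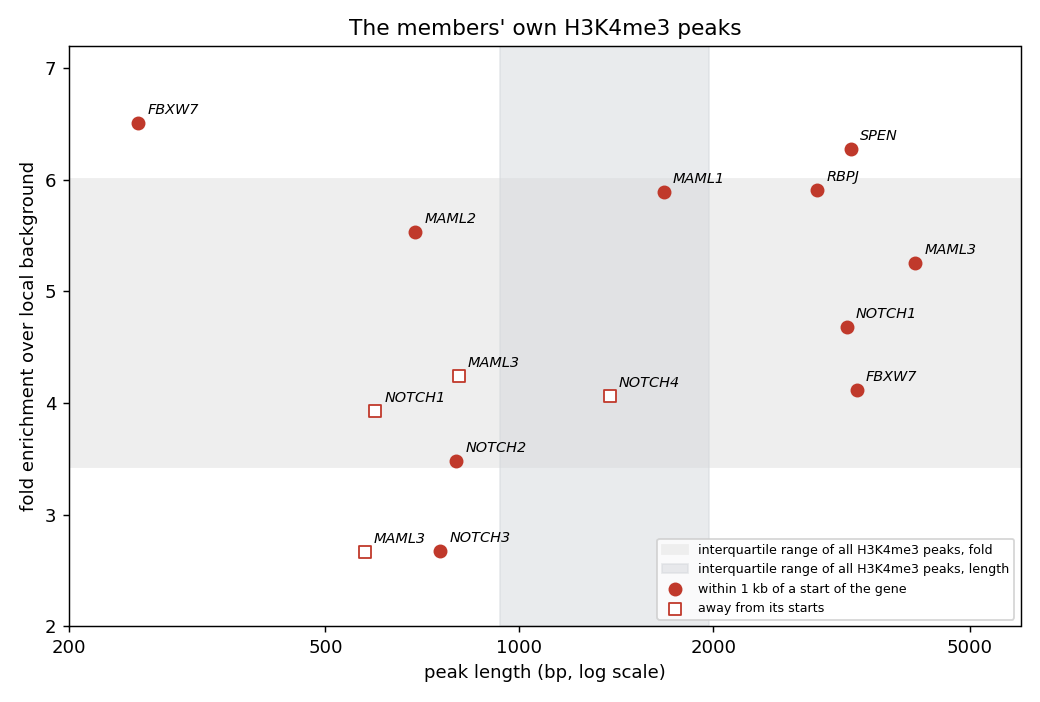
Length in bp and fold enrichment of the 14 H3K4me3 peaks at an end of or inside each gene, with shaded interquartile ranges of all 11100 H3K4me3 peaks. The start peaks of MAML3, FBXW7, SPEN and NOTCH1 are longer than 3000 bp, and the 256-bp FBXW7 internal peak has the highest fold, 6.51.

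Across the 10 genes there were 14 H3K4me3 peaks at their ends or inside them, 10 further peaks at ends of neighbours and 4 elsewhere. Of these 4, all but the one upstream of NOTCH1 lay within 1 kb of a neighbour's RefSeq start, at GPSM3, CANX and SQSTM1. Of the 14, 10 lay within 1 kb of one of the gene's own RefSeq starts. All 14 had a median length of 1094.5 bp and a median fold of 4.46, against 1397 bp and 4.53 over all H3K4me3 peaks. The 10 start peaks had medians of 2288.5 bp and 5.39. The list was not restricted to peaks at starts, so it is not a like set for these 10. H3K4me1 overlapped 8 of the 14 (57.1%, interval 28.9% to 82.3%), against 46.8% of all H3K4me3 peaks. Of the 10 start peaks alone, it overlapped 4 (40.0%, 12.2% to 73.8%). It lay within 2 kb on both sides of 11 of the 14 (78.6%, 49.2% to 95.3%), against 59.3%, and of 7 of the 10 start peaks (70.0%, 34.8% to 93.3%). No share over all H3K4me3 peaks at starts was computed, so the counts of start peaks have no like share beside them. Of the 14, 5 lay wholly under H3K4me1 (35.7%, 12.8% to 64.9%), against 9.78% of all H3K4me3 peaks: the peaks inside NOTCH1, at the 3′ end of NOTCH4, at the MAML2 start, at the FBXW7 internal start, and the one farther into MAML3. These 5 peaks were 598, 1383, 689, 256 and 576 bp long, in that order, each below the list median of 1397 bp. The part of peak length in this share was not tested. The intervals on the overlap and on both sides span the share over all peaks. These 14 peaks share loci and 1 library and are not replicates.

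Ordered by share of span under H3K4me1, the genes ran from MAML3 (37.3%) and NOTCH1 (33.4%) through MAML1 (16.3%), NOTCH3 (12.4%), NOTCH4 (9.62%), FBXW7 (8.67%), MAML2 (6.73%) and NOTCH2 (6.50%) to SPEN (3.97%) and RBPJ (2.39%). The median was 9.14%, against 2.04% over all protein-coding genes and 1.44% over those of at least 100 kb. With no replicates, neighbours in this order cannot be told apart. The order depends on which peaks are kept. With only the peaks whose −log10 q reached 5, NOTCH1 stayed at 33.4% and NOTCH4 at 9.62%, MAML1 was at 5.86%, MAML2 at 4.86%, SPEN at 3.69% and FBXW7 at 0.786%, and MAML3, NOTCH2, NOTCH3 and RBPJ were at 0%. The NOTCH1 value rests on 1 peak whose −log10 q of 5.09 is just over that limit. Per 100 kb of window, MAML3 had 9.86 H3K4me1 peaks, the most, and RBPJ 1.63, the fewest.

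**Figure D5:**
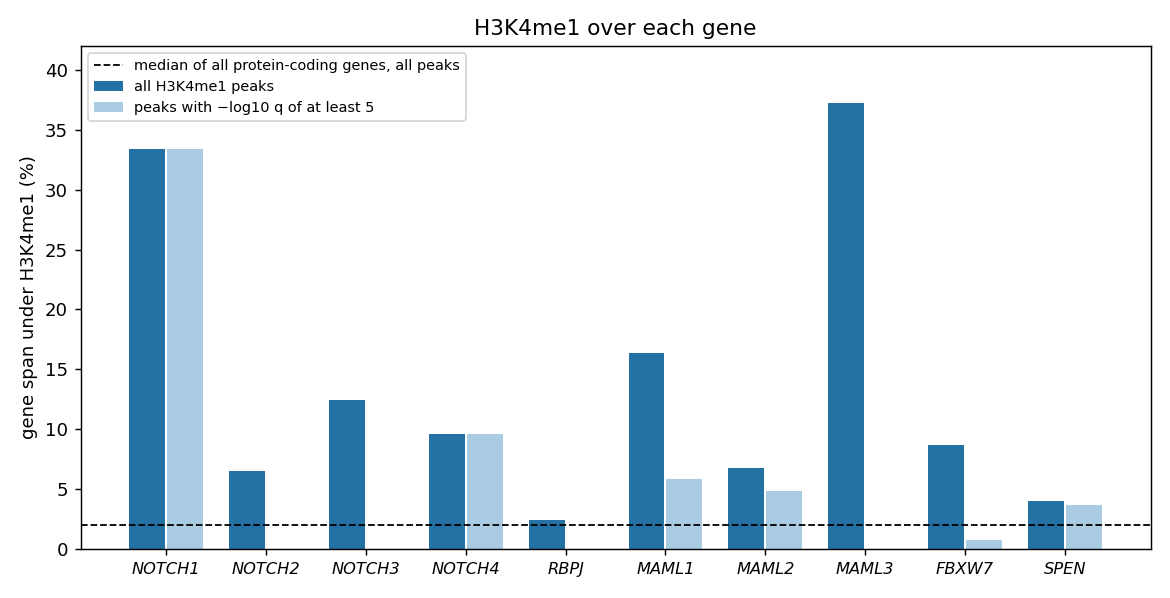
Percent of each gene span under H3K4me1, from all peaks (dark bars) and from those whose −log10 q reached 5 (light bars), with the median of all protein-coding genes over all peaks as a dashed line at 2.04%. NOTCH1 is at 33.4% in both, and MAML3 is at 37.3% with all peaks and 0% with the stricter ones.

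The other genes of the pathway fell on 2 sides. H3K4me3 lay at an end of 35 of 44 (79.5%), against 49.4% of all protein-coding genes, and at a RefSeq start of 29 of the 36 with a start in the table, against 53.5%. The counts of the single lists below stand against the same 49.4%. The lists were chosen with earlier results of these data known, which limits what these shares can show. Lengths below are summed over the H3K4me3 peaks at or inside a gene. None of the 5 ligand genes had the mark at an end. Among them, DLL4 had H3K4me1 over 61.8% of its span, DLL1 over 23.8% and JAG2 over 2.01%, and DLL3 and JAG1 had none. Ligands activate receptors on a neighbouring cell, and whether that bears on these counts was not tested. The proteases that cut the receptor were marked at 7 of 8 genes, with the most H3K4me3 at ADAM10 (2.81 kb), and PSEN2, a gamma-secretase catalytic subunit, was the one without. The glycosylation genes that tune receptor and ligand binding were marked at 4 of 5, with 2.77 kb at MFNG, 1.99 kb at RFNG, 1.68 kb at POFUT1 and 1.04 kb at POGLUT1, and LFNG was the one without, though H3K4me1 covered 51.7% of it.

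Genes that move or ubiquitinate receptors and ligands had H3K4me3 at an end in 7 of 8 cases, all but DTX4, with 3.64 kb at MIB1, a ligase that acts on ligands. All 5 coactivator genes were marked: EP300 with 3.64 kb and KAT2B with 3.51 kb, then SNW1, CREBBP and KAT2A. Corepressor genes were marked at 8 of 9, all but L3MBTL3. TLE3, a Groucho-family corepressor, had the most H3K4me3 of all 44 genes, 7.34 kb, followed in its list by NCOR1 with 3.74 kb and KDM5A, an H3K4me3 demethylase, with 3.03 kb. The 4 kinase module genes MED13, CDK8, CCNC and MED12, whose products act on the Notch intracellular domain and Mediator, were all marked. The median share of span under H3K4me1 was 8.37% over the 44 genes, against 2.04% over all protein-coding genes.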

How the data were processed

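H3K4me1 and H3K4me3 peaks of ALL-SIL, 1 library per mark, were used as deposited. Peaks were called by the authors with MACS2 2.1.0.20150731 in broad mode (q 0.1, strong regions 0.05, 1 read per position) against 1 input library, per the file headers. The submitters' processing notes give GRCh38 as the build. The headers' alignment paths name STAR, and how it was run is not given in the sources used here. Of the values, the deposited pileup is a coverage signal, the deposited fold enrichment is a ratio to local background, and the deposited −log10 p and −log10 q are scores on that scale, all averaged over each peak by the authors' caller. Filtered depths were 34813455 (H3K4me1), 30823016 (H3K4me3) and 18859011 tags (input). Background windows were 1000 and 10000 bp, per the file headers.

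Gene spans came from RefSeq GRCh38.p14 and start sites from the RefSeq promoter table. Overlap counted from 1 bp, with ends of 1 kb, windows of 50 kb and flanks of 2 kb. Shares carry exact (Clopper-Pearson) 95% intervals, for counting error only. No test was run, since each mark has 1 library. Scripts ran in Python 3.11.15 with pandas 2.3.3, numpy 2.4.6, scipy 1.17.1 and matplotlib 3.10.9, and the overlap and coverage code was tested on simulated peaks. The members and lists were chosen with earlier results of these data known. All 10 members were named, with every neighbour that had an end within 1 kb of an H3K4me3 peak of a member window. In other pathway lists, genes were named on a side of 5 or fewer and otherwise up to 4 by H3K4me3 length. CIR1 was not analysed here. Alternatives were a minimum −log10 q of 5, the upper part of each list by fold, equal list sizes, other windows and overlaps, and RefSeq starts in place of ends, the last added after seeing the data.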

Additional observations from a re-analysis of the deposited data

How the results depend on the processing

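No paired analysis was possible because each mark has 1 library. Of 35 recomputed counts and medians, 17 stayed within 1.5 times. Members with H3K4me3 at an end were 8 at a minimum −log10 q of 5 (39.8% of protein-coding genes), 9 with ends of 2.5 kb, 7 with 50% of the peak required in the end window, and 5 in the upper part by fold (25.5% of protein-coding genes). Members marked inside but not at an end were 2 in the upper part by fold and 3 with 50% of the peak required. The share over all protein-coding genes was not computed for ends of 2.5 kb, for the 50% rule or for the inside counts. Those counts therefore cannot be called high or low. H3K4me1 peaks in the windows were 37 at a minimum −log10 q of 5, 89 in the upper part by fold and 38 with lists of equal size, and the median share of span was 2.24%, 5.54% and 2.24% in these settings, against 0% over all protein-coding genes in each. H3K4me3 peaks in the windows were 12 in the upper part by fold. Own H3K4me3 peaks that overlapped H3K4me1 were 3 of 11 at a minimum −log10 q of 5, 3 of 7 in the upper part by fold, 4 with lists of equal size and 5 with 50% of the peak covered. Those with H3K4me1 on both sides were 3 of 11, 5 of 7 and 4 in the first 3 of these settings. The shares over all H3K4me3 peaks were not computed in these settings, so the changes cannot be called particular to the members. Other pathway genes with H3K4me3 at an end were 21 in the upper part by fold. Each stricter setting keeps fewer peaks by construction. With RefSeq starts, chosen after seeing the data, 9 members and 29 other pathway genes were marked. At this depth a missing peak is one not called, not absence of the mark.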
